A study of Mus musculus with 4 samples.

Results

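The genes described here carry serotonin, RANKL and calcium signals in the mammary gland. They are *Tph1*, *Htr7* and *Maoa* of the serotonin system, *Pthlh* and *Casr*, which link calcium sensing to a secreted hormone, *Tnfsf11* and *Tnfrsf11a*, which encode RANKL and its receptor RANK, and *Calca* and *Calcr*, which encode calcitonin and its receptor. The 9 genes were chosen by name from 22483 named loci, in a table of 30506 loci, after the genotype values of this table had been seen, among them the high value of *Tph1*. Their genotype values are therefore a description and carry no test. Each of the 9 names belonged to a single locus.

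RNA was sequenced from the mammary tissue of virgin mice, 2 with the genotype miR-21+/+ (control) and 2 with the genotype miR-21-/- (mutant), all 2 months old and all of the mixed strain 129SV::FVB/N::C57BL/6. No Cre or tissue-restricted allele is described for the mutant mice, so the deletion is taken to be present in every cell type of the tissue. The deposited value of a locus is its FPKM, a count of fragments divided by exon length and by the total mapped, and a genotype has 1 value per locus in which both mice are combined. The spread between mice is not visible, no value below has a replicate check, and no p-value or error is given. The depth of the libraries is unknown. The targeted gene shares the locus *Mir21,Vmp1* with its host gene, which was at 42.5 FPKM in control and 68.2 FPKM in mutant glands. The mature microRNA is not part of poly(A) RNA, so this value does not check the genotype labels.

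Serotonin made in the breast epithelium is known as a local signal that restrains milk secretion and raises the output of parathyroid hormone-related protein, through which bone calcium is released for milk. Tryptophan hydroxylase 1, the product of *Tph1*, carries out the rate-limiting step of serotonin synthesis outside the brain. RANKL is released by hormone-sensing luminal cells under progesterone and acts on RANK of neighbouring epithelial cells, and the same pair drives osteoclast formation in bone. Calcitonin opposes bone resorption, and the calcium-sensing receptor reads extracellular calcium.

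The mature microRNA that the mutant mice lack is shown first, because it gives the letters that were searched for in the 9 genes. It is 22 nt long in RefSeq (GRCm38.p6), and its seed, bases 2 to 8, is in capitals.
mmu-miR-21a-5p: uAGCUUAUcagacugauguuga
A match to the seed reads ATAAGCT in a transcript (a 7mer-m8 site), ATAAGCTA with an A opposite base 1 (an 8mer site) and TAAGCTA when base 8 is left out (a 7mer-A1 site). These letters were searched on the transcribed strand of mm9 in the longest annotated coding 3′ UTR of each gene. They occurred in 2 of the 9 genes, *Maoa* and *Casr*, and in 9.79% of 17956 annotated genes. A further match lay at *Tph1*, beyond the end of the gene in the GENCODE annotation. The 3 matches to this arm are shown with neighbouring bases, in the direction of transcription and with the match in capitals.
*Maoa*, chrX:16263916-16263941, plus strand, 7mer-A1 in the 3′ UTR: atcaaccctatTAAGCTAcagtctgg
*Casr*, chr16:36494272-36494298, minus strand, 8mer in the 3′ UTR: aaagcaaggctATAAGCTAcccacctg
*Tph1*, chr7:53901932-53901957, minus strand, 7mer-m8 beyond the GENCODE end: taagcagttgtATAAGCTtttcacta
The annotated 3′ UTR was 2443 nt long for *Maoa*, 771 nt for *Casr* and 296 nt for *Tph1*, and that of *Tph1* held no match. The *Tph1* locus of the deposited table ran past the GENCODE end of the gene and covered the match. It spanned 27936 bp, where *Tph1* spans 25408 bp in GENCODE and 27897 bp in RefSeq, on another genome build. Which of the bases past the GENCODE end are exon is not given in the sources used here. *Maoa* and *Casr*, whose annotated 3′ UTRs held a match, had log2 ratios of −0.12 and 0.31. The mutant mice lack the other arm of the microRNA as well, mmu-miR-21a-3p, whose seed matches occurred in the annotated 3′ UTR of *Maoa* (a 7mer-A1) and beyond the GENCODE end of *Tph1* (a 7mer-m8), and in 21.0% of the annotated genes. A match of letters is not a measured site of binding.

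In both genotypes the 9 genes spanned a wide range of levels, from *Calcr* at about 0.02 FPKM to *Maoa* at 9.83 FPKM in control and *Tph1* at 14.6 FPKM in mutant glands. In control glands the order from high to low was *Maoa*, *Tnfrsf11a*, *Tph1*, *Calca*, *Pthlh*, *Htr7*, *Tnfsf11*, *Casr* and *Calcr*. In mutant glands *Tph1* stood first, ahead of *Maoa*, and *Tnfsf11* stood above *Pthlh* and *Htr7*. The remaining genes kept their order. *Tph1* and *Maoa* were the 2 genes above 5 FPKM in at least 1 genotype, and 5 did not exceed 1 FPKM in either. With a single value a genotype, neighbours in this order cannot be set against a spread. *Tph1* made up 9.58% of the summed FPKM of the 9 genes in control and 51.4% in mutant glands. Without it the sum of the other genes was 14.2 FPKM in control and 13.9 FPKM in mutant glands.

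**Figure D1:**
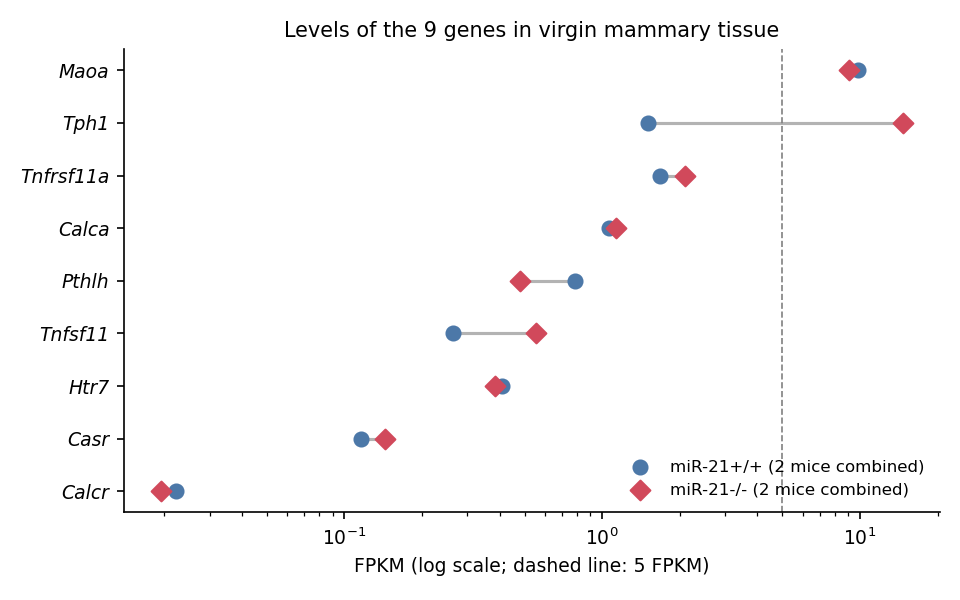
Level of each of the 9 genes in FPKM (log axis) in miR-21+/+ (circles) and miR-21-/- (diamonds) glands, each point being 1 value for 2 mice combined, with a dashed line at 5 FPKM. *Tph1* lies at 1.5 and 14.6 FPKM on either side of the dashed line, and *Maoa*, *Calca*, *Htr7* and *Calcr* have nearly overlapping points.

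Over 5 FPKM in at least 1 genotype, and at a ratio of 2 or more, 1 of the 9 genes was higher in mutant glands and 0 were lower. The gene was *Tph1*, whose value was known when the 9 were chosen. Among the 9714 named loci over the same minimum, 1.25% were higher and 1.48% lower by this measure. No replicated test stands behind either share, so no gene is called at a p-value. The split of 121 higher and 144 lower named loci depended on the scaling. It became 177 and 118 when both columns were scaled to equal sums over named loci. With equal sums over all loci, a scaling that shifts every log2 ratio by −0.63, it became 19 and 893. The FPKM of all loci, unnamed ones included, summed to 759295 in control and 1.1756e+06 in mutant glands. That of named loci alone summed to 380567 and 355385. Without the minimum, *Tnfsf11* passed a ratio of 2 as well. In 6 of the 9 genes the values of the genotypes lay within a ratio of 1.5. The median log2 ratio of the 9 genes was 0.09. Over the 4 of them above 1 FPKM in at least 1 genotype it was 0.21, against −0.03 for the named loci over the same minimum.

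**Figure D2:**
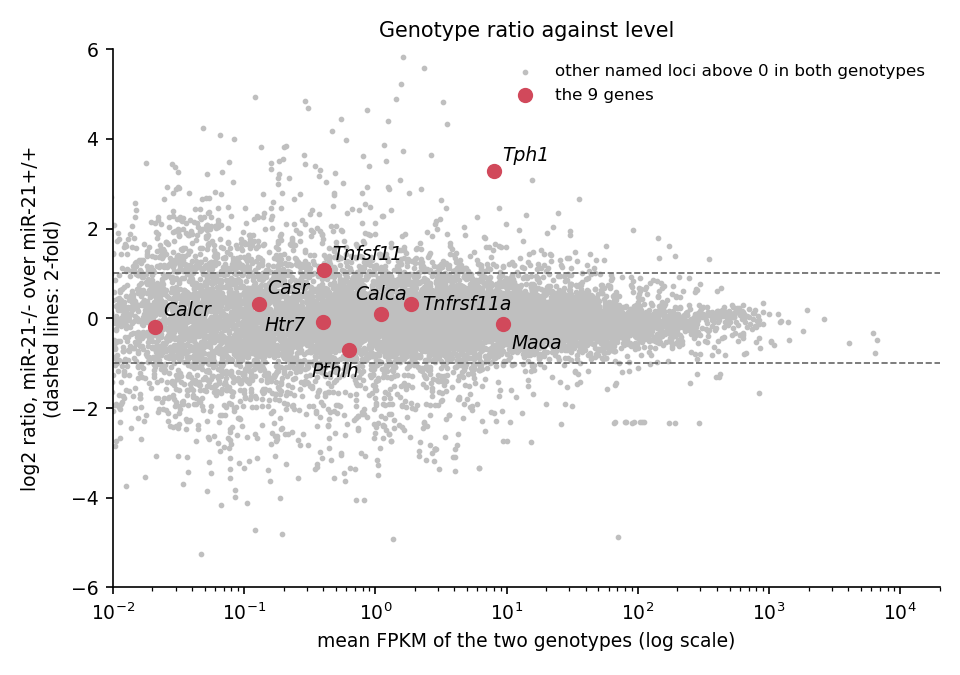
Log2 ratio of miR-21-/- over miR-21+/+ FPKM against the mean FPKM of both genotypes (log axis), with grey points for other named loci above 0 in both genotypes and red points for the 9 genes. Points outside the axes are not drawn. Ratios scatter more widely at low FPKM, where 7 of the 9 genes lie, and *Tph1* stands above the grey points of its level.

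*Tph1* (mm9, chr7:53899972-53927907) was at 1.5 FPKM in control and 14.6 FPKM in mutant glands, 9.75-fold higher and a log2 ratio of 3.29. Among all 22483 named loci its level stood at the 44.0th percentile in control and at the 79.2th in mutant glands. By log2 ratio *Tph1* ranked 3 among the 9714 named loci over 5 FPKM in at least 1 genotype. It passed this minimum through its mutant value alone, the value for which it was chosen, so the rank is a description only. The loci next above *Tph1* were *Ptpn5*, a neural tyrosine phosphatase, at 4.82, and *Olfm4*, a secreted glycoprotein of epithelial crypts, at 4.33. Next below were *Cxcl15*, a chemokine of lung epithelium, at 3.09, and *Slc5a5*, the sodium iodide symporter, at 2.65. *Ptpn5*, *Olfm4* and *Cxcl15* also passed the minimum through their mutant values alone. Among the 2985 named loci with a mean of 5 to 10 FPKM, the class of *Tph1*, 1.14% were higher in mutant glands by a ratio of 2 or more. The middle 50% of that class had log2 ratios from −0.14 to 0.11. The mean that places *Tph1* in the class comes mostly from its mutant value. With 1 added to each FPKM the log2 ratio of *Tph1* was 2.64, and with both columns scaled to equal sums over all loci it was 2.66.

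The loci around *Tph1* were nearly level between genotypes. Within 250 kb, 6 other named loci were over 1 FPKM, and their log2 ratios ran from −0.10 to 0.04 with a median of −0.02. *Saal1*, whose middle was the nearest to the *Tph1* start site, was at 4.36 FPKM in control and 4.33 FPKM in mutant glands. *Sergef*, on the other side, was at 2.67 and 2.49 FPKM. The most abundant of them was *Ldha*, a subunit of lactate dehydrogenase, at 338 and 329 FPKM. *Hps5*, *Gtf2h1* and *Tsg101* completed the group. The one named locus over 1 FPKM within the same distance of *Tnfsf11* was *Akap11*, at 6.94 and 6.77 FPKM.

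**Figure D3:**
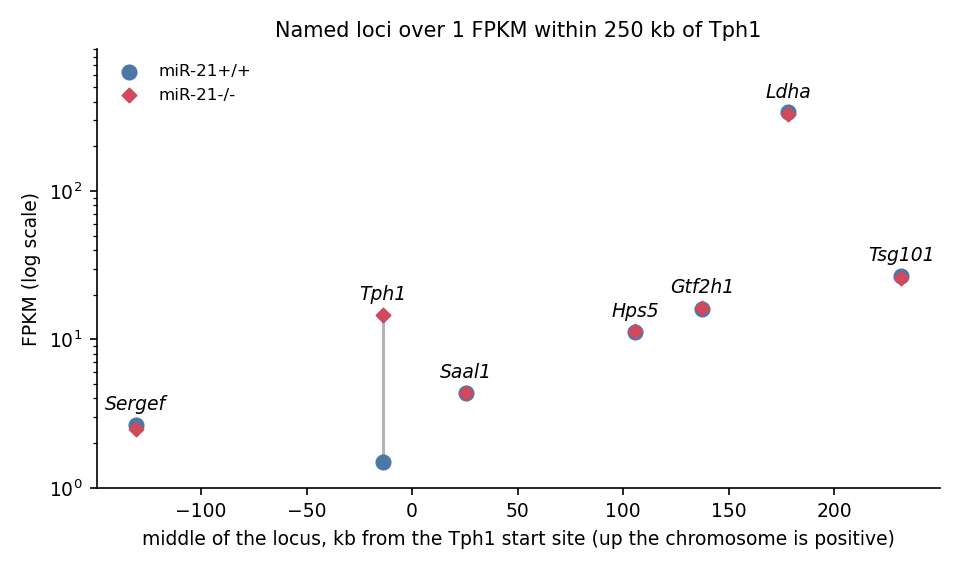
FPKM (log axis) of the named loci over 1 FPKM within 250 kb of *Tph1*, against the distance in kb of the middle of each locus from the *Tph1* start site, in miR-21+/+ (circles) and miR-21-/- (diamonds) glands. The 2 points of *Tph1* are far apart, whereas those of its 6 neighbours lie on top of each other.

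Other genes of serotonin synthesis and uptake did not reach the ratio of *Tph1*, a gene chosen with its value known. *Ddc*, which decarboxylates the product of *Tph1* to serotonin, was at 0.327 FPKM in control and 0.171 FPKM in mutant glands. *Tph2*, the hydroxylase of neurons, was at 0.0718 and 0.173 FPKM, a log2 ratio of 1.27. Both genes were thus under 1 FPKM in each genotype, where ratios scatter. *Slc6a4*, the transporter that takes serotonin back into cells, was at 1.94 FPKM in control and 2.30 FPKM in mutant glands.

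*Maoa* (chrX:16196824-16264938), one of the oxidases that degrade serotonin, was the most abundant of the 9 genes in control glands. It was at 9.83 FPKM in control and 9.05 FPKM in mutant glands, a log2 ratio of −0.12. Its relative *Maob* was at 27.0 and 20.1 FPKM. Per length, *Tph1* was thus at 0.153 times the level of *Maoa* in control and at 1.62 times its level in mutant glands. In mutant glands *Tph1* was above *Maoa* but below *Maob*. *Maob* exceeded *Maoa* by a ratio of 2.75 in control and 2.22 in mutant glands. Of 11 genes for serotonin synthesis, transport and removal, 6 were over 1 FPKM, 3 of them higher and 3 lower in mutant glands, with a median log2 ratio of 0.06. *Tph1* alone among these 6 passed a ratio of 2.

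Receptors for serotonin were scarce. *Htr7* (chr19:36033219-36131850), a receptor coupled to cyclic AMP, was at 0.408 FPKM in control and 0.383 FPKM in mutant glands, a log2 ratio of −0.09 that became 0.01 with both columns scaled to equal sums over named loci. *Htr7* itself stood at the median of its class of 0.3 to 0.5 FPKM, whose middle 50% had log2 ratios from −0.50 to 0.39. Of 14 serotonin receptor genes, 13 did not exceed 1 FPKM in either genotype and 4 were listed at 0 in both. The exception was *Htr4*, named after its value was seen, at 0.815 FPKM in control and 1.59 FPKM in mutant glands, a log2 ratio of 0.97. The FPKM of the 14 genes summed to 2.97 in control and 3.06 in mutant glands.

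The supply of substrate and cofactor for tryptophan hydroxylase was described by further lists. Of 7 genes for tetrahydrobiopterin, the cofactor of the enzyme, 6 were over 1 FPKM with a median log2 ratio of −0.14. *Pcbd1*, which recycles the cofactor and was named after its values were seen, passed a ratio of 2, at 1.70 FPKM in control and 3.56 FPKM in mutant glands. Of 11 genes for tryptophan uptake and degradation, 8 were over 1 FPKM with a median of −0.11. *Ido1*, which opens the kynurenine route and so competes for tryptophan, was at 3.75 FPKM in control and 16.1 FPKM in mutant glands, a log2 ratio of 2.10. *Haao*, a later enzyme of that route and also named after its values were seen, was at 1.93 and 0.646 FPKM, a log2 ratio of −1.58.

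*Pthlh* (chr6:147200632-147212607) encodes parathyroid hormone-related protein, the factor through which mammary serotonin is known to act on bone. It was at 0.783 FPKM in control and 0.478 FPKM in mutant glands, 1.64-fold lower and a log2 ratio of −0.71. *Pthlh* was thus on the lower side while *Tph1* was on the higher side. Both values were under 1 FPKM, where ratios scatter. Among the 1009 named loci with a mean of 0.5 to 1 FPKM, 13.5% had a log2 ratio as low as that of *Pthlh* or lower, and 16% differed by a ratio of 2 or more either way. *Pth1r*, the receptor for the hormone, was at 21.5 FPKM in control and 15.4 FPKM in mutant glands, a log2 ratio of −0.48. Receptor exceeded ligand by a ratio of 27.4 in control and 32.2 in mutant glands.

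*Casr* (chr16:36493782-36562220), the calcium-sensing receptor, was at 0.116 FPKM in control and 0.144 FPKM in mutant glands, a log2 ratio of 0.31. The middle 50% of the 835 named loci with a mean of 0.1 to 0.2 FPKM ran from −0.55 to 0.54, so *Casr* lay within the scatter of its level. *Vdr*, the receptor for vitamin D, was at 4.07 FPKM in control and 8.79 FPKM in mutant glands, a log2 ratio of 1.11. Of 14 genes for parathyroid hormone-related signals, calcium sensing and vitamin D, 5 were over 1 FPKM with a median of −0.07, and *Vdr* alone among the 5 passed a ratio of 2. Among 17 calcium pumps and channels, 11 were over 1 FPKM and 0 of these passed a ratio of 2 in either direction, with a median of 0.00. *Atp2b2*, the plasma membrane pump known for moving calcium into milk, was near 0, at 0.0552 FPKM in control and 0.0472 FPKM in mutant glands.

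*Tnfsf11* (chr14:78677253-78707850), the gene for RANKL, was at 0.263 FPKM in control and 0.554 FPKM in mutant glands, 2.11-fold higher and a log2 ratio of 1.08. Of the 665 named loci with a mean of 0.3 to 0.5 FPKM, 11.9% were higher by a ratio of 2 or more. A ratio of this size was therefore about 10 times as frequent at the level of *Tnfsf11* as at that of *Tph1*, where 1.14% of loci reached it. With 1 added to each FPKM the log2 ratio of *Tnfsf11* was 0.30. *Tnfrsf11a* (chr1:107677300-107744558), the gene for RANK, was at 1.67 FPKM in control and 2.10 FPKM in mutant glands, a log2 ratio of 0.33, while the middle 50% of its class ran from −0.37 to 0.24. *Tnfrsf11b*, the gene for the decoy receptor osteoprotegerin, was at 0.654 and 0.525 FPKM.

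Within a genotype, these values placed RANK above RANKL, by a ratio of 6.35 in control and 3.78 in mutant glands. Decoy receptor exceeded RANKL by a ratio of 2.49 in control glands, and the ratio was 0.947 in mutant glands. These quotients rest on values under 1 FPKM. The genes that carry the RANK signal inside the cell differed little. Of 21 genes of the pathway, 19 were over 1 FPKM, 8 higher and 11 lower in mutant glands, and 0 passed a ratio of 2 in either direction. Their median log2 ratio was −0.03, equal to that of all named loci over 1 FPKM. The extremes, named after their values were seen, were *Traf1*, an adaptor of tumor necrosis factor receptors, at −0.62 and *Id2*, a nuclear regulator downstream of RANK, at 0.57.

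*Calca* (chr7:121774992-121779871) encodes calcitonin and, by another splice choice, the neuropeptide CGRP, and the values do not separate these products. It was at 1.06 FPKM in control and 1.13 FPKM in mutant glands, a log2 ratio of 0.09. *Calcr* (chr6:3635720-3714713), the calcitonin receptor, was the lowest of the 9 genes, at 0.0222 FPKM in control and 0.0195 FPKM in mutant glands. At this level 50.7% of named loci differed by a ratio of 2 or more either way, so the log2 ratio of *Calcr*, −0.19, is small for its class. *Mir489* and *Mir653* lie within the *Calcr* locus on the same strand. *Calcb*, the second CGRP gene, was listed at 0 in control and at 0.0131 FPKM in mutant glands.

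The related receptor was far more abundant than *Calcr*. *Calcrl*, which binds CGRP and adrenomedullin, was at 10.5 FPKM in control and 8.50 FPKM in mutant glands. It exceeded *Calcr* by a ratio of 472 in control and 437 in mutant glands. The accessory proteins that set ligand choice were *Ramp1* at 2.05 and 2.14 FPKM, *Ramp2* at 47.5 and 42.7 FPKM, and *Ramp3* at 1.27 and 1.60 FPKM. Of 11 genes of the family, 7 were over 1 FPKM and 0 passed a ratio of 2 in either direction, with a median log2 ratio of 0.06.

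Over the 8 pathway lists together, 97 genes stood beside the members, and 59 of them were over 1 FPKM in at least 1 genotype. By a ratio of 2 or more, 3 were higher (*Ido1*, *Vdr* and *Pcbd1*) and 1 was lower (*Haao*) in mutant glands. These are 5.08% and 1.69% of the 59, where 2.09% of all named loci over 1 FPKM were higher and 2.56% lower. Of the 59 genes, 52 lay within a ratio of 1.5. Most listed genes of its own and the neighbouring pathways did not have the ratio of *Tph1*. That gene was chosen with its high value known, so this contrast was fixed in advance and is a description only.

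**Figure D4:**
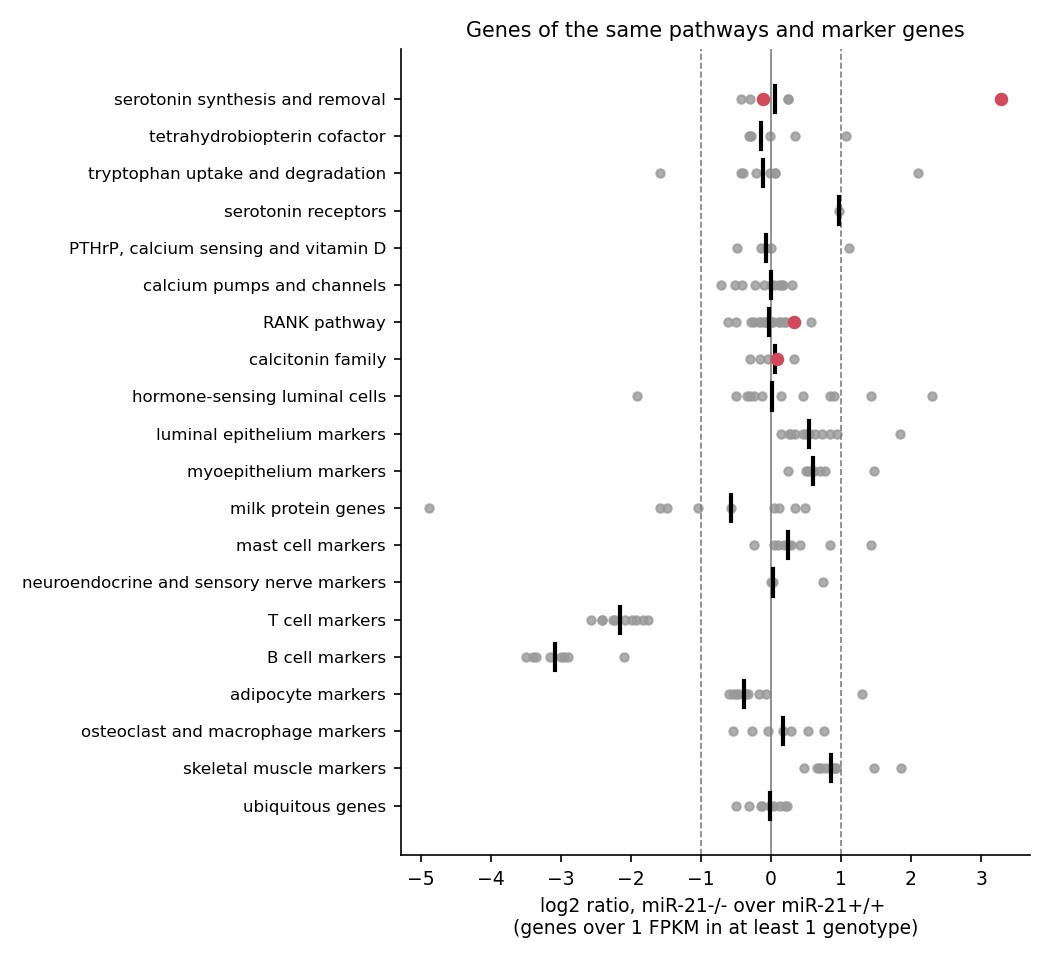
Log2 ratio of miR-21-/- over miR-21+/+ FPKM for the genes over 1 FPKM in at least 1 genotype, by pathway or marker list, with a point for each gene, red points for the 9 genes, black bars for list medians and dashed lines at a ratio of 2. *Tph1*, at 3.29, is the rightmost point, while the medians of the RANK, calcium and calcitonin lists lie between −0.07 and 0.06.

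RANKL and several partners of these signals are known products of hormone-sensing luminal cells. The genes listed for such cells did not all lie on one side. Of 15 genes, 12 were over 1 FPKM on a locus of their own, 6 higher and 6 lower in mutant glands. One of the 6 lower, *Fgf10*, at 24.7 and 20.8 FPKM, is not particular to luminal cells. *Gata3* was left out because its locus is merged with another gene, and that locus was at 19.6 and 38.8 FPKM. *Pgr*, the progesterone receptor that acts upstream of RANKL, was at 4.71 FPKM in control and 23.3 FPKM in mutant glands, a log2 ratio of 2.30. *Rspo1*, a secreted Wnt enhancer, was at 2.02 and 5.44 FPKM. *Cited1*, a coregulator of the estrogen response, went the other way, at 43.9 FPKM in control and 11.7 FPKM in mutant glands. *Areg*, an estrogen-dependent growth factor, was at 44.5 and 83.0 FPKM, and *Wnt4*, a progesterone target, was at 4.40 and 3.58 FPKM. Around *Pgr* (chr9:8899548-8992051), all 21 unnamed loci above 0 within 250 kb were higher in mutant glands as well, with median levels of 0.0890 and 1.52 FPKM. Whether reads of that run add to the value of *Pgr* was not tested.

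The makeup of the tissue was read from marker lists, and as deposited several moved with the genotype. In such bulk tissue, fewer cells of a type and less RNA per cell cannot be told apart. All 13 luminal epithelium markers were higher in mutant glands, from *Krt19* at 0.15 to *Ehf* at 1.85 on the log2 scale, and their summed FPKM was 749 in control and 1060.2 in mutant glands. All 8 myoepithelium markers with a locus of their own were higher, with sums of 345 and 547 FPKM. *Oxtr* alone among them passed a ratio of 2, at 17.5 FPKM in control and 48.7 FPKM in mutant glands. These directions depended on the scaling. As deposited the median log2 ratio was 0.54 for the luminal and 0.60 for the myoepithelium list. With equal sums over all loci these medians were −0.09 and −0.03. *Krt18*, a luminal keratin, was at 148 and 216 FPKM, and *Acta2*, the smooth muscle actin of myoepithelium, at 222 and 341 FPKM. With both columns scaled to equal sums over the luminal markers, a scaling chosen after seeing the data, the log2 ratio of *Tph1* was 2.79 and that of *Tnfsf11* 0.58. The same scaling and that over all loci turned *Casr*, *Tnfrsf11a* and *Calca* to the lower side, at −0.19, −0.17 and −0.41 over the luminal markers.

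Mast cells and enteroendocrine cells are known sites of *Tph1* outside the breast epithelium, and their markers were listed for that reason. Of 9 mast cell markers over 1 FPKM, 8 were higher and 1 lower in mutant glands, with a median log2 ratio of 0.24 and sums of 136 and 171 FPKM. One of them, *Kit*, is also in the luminal list, and it contributed 20.1 and 35.9 FPKM to these sums. With equal sums over all loci the median of the mast cell list was −0.39. The most abundant, the proteases *Mcpt4* and *Tpsb2*, were at 32.7 and 28.3 FPKM in control and at 37.1 and 34.5 FPKM in mutant glands. *Tpsab1*, a further tryptase, was at 0.649 and 1.75 FPKM. Of 12 neuroendocrine and sensory nerve markers, 9 did not exceed 1 FPKM in either genotype, and *Chga*, the defining granule protein, was at 0.0476 and 0.142 FPKM. The neuroendocrine and nerve list summed to 8.57 FPKM in control and 9.96 FPKM in mutant glands, and *Syp* and *Trpv1*, its most abundant genes, are not particular to cells that make serotonin. The part of mast and neuroendocrine cells in the value of *Tph1* was not tested.

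Lymphocyte markers went the other way. All 10 T cell markers were lower in mutant glands, with sums of 53.4 and 12.4 FPKM, as were all 8 B cell markers with a locus of their own, with sums of 39.5 and 5.85 FPKM. *Lck*, a kinase of T cells, was at 8.41 and 2.13 FPKM, and *Cd79b*, of the B cell receptor, at 12.3 and 2.88 FPKM. Of 10 adipocyte markers 9 were lower, with sums of 19666 and 14822 FPKM, while the hormone gene *Lep* was higher, at 27.7 and 67.9 FPKM. All 11 skeletal muscle markers were higher, with sums of 1429 and 2402 FPKM. Of 7 osteoclast and macrophage markers over 1 FPKM, of cells that respond to RANKL, 4 were higher and 3 lower, with a median log2 ratio of 0.17. The sum of this list was on the other side, at 355 FPKM in control and 331 FPKM in mutant glands. With equal sums over all loci the median of the list was −0.46. In it *Acp5*, an acid phosphatase of osteoclasts and macrophages, was at 172 and 118 FPKM. *Cd68*, a lysosomal protein of macrophages, was left out of the sum, because its locus is merged with *Eif4a1* and *Senp3*. That merged locus was at 255 and 252 FPKM, which is not a value of *Cd68* alone. The milk protein genes, which mammary serotonin is known to restrain, were mixed, with 4 higher and 5 lower of 9 over 1 FPKM and the 4 past a ratio of 2 all lower. These were *Glycam1* at 136 and 4.63 FPKM, *Csn1s2a* at 13.3 and 4.44 FPKM, *Wap* at 7.09 and 2.54 FPKM, and *Csn2* at 14.8 and 7.21 FPKM. *Glycam1* is also made by the high endothelial venules of lymph nodes, and its value was lower together with those of the lymphocyte markers. The part of cell makeup in the values of the 9 genes was not tested. The 10 ubiquitous genes had a median log2 ratio of −0.01.

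**Figure D5:**
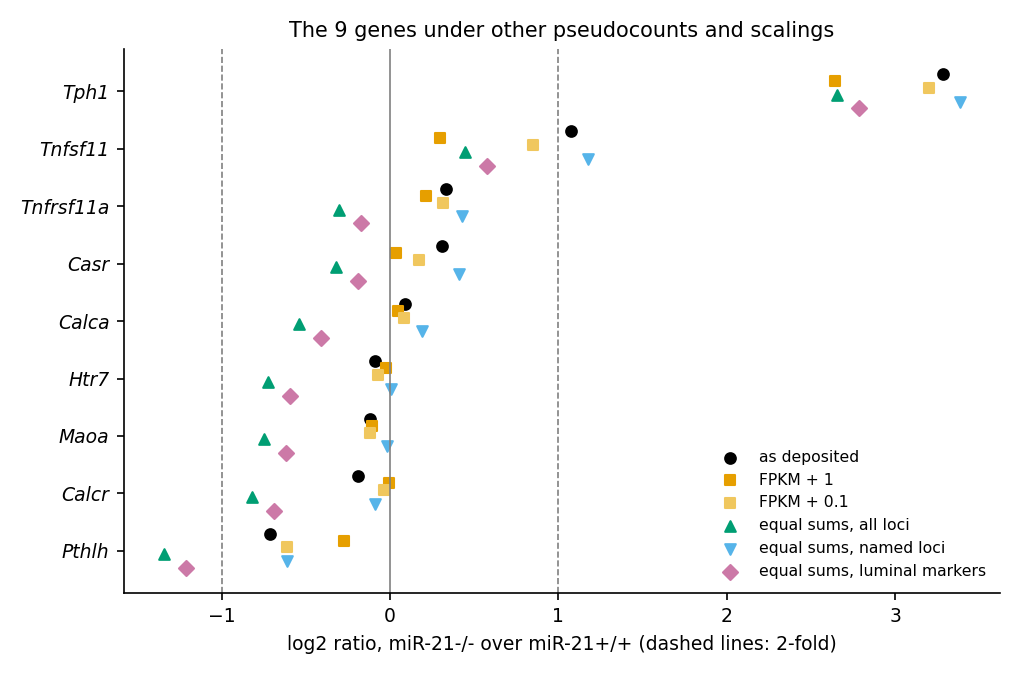
Log2 ratio of miR-21-/- over miR-21+/+ FPKM of each of the 9 genes as deposited, with 1 or 0.1 added to each value, and with the columns scaled to equal sums over all loci, named loci or luminal markers. *Tph1* stays between 2.64 and 3.38, to the right of the dashed line at a ratio of 2, and *Tnfsf11* lies between 0.30 and 1.18.

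Promoters of the 9 genes were searched for the palindrome TTCNNNGAA, the core motif of STAT factors, since the study asked about STAT5 and miR-21. The RefSeq windows around annotated starts (GRCm38.p6) were short, such as chr7:46672488-46672787 for *Tph1*, and a motif further away would be missed. In them, 0 of 11 windows of the 9 genes held these letters, and 8.30% of 32851 windows of all genes did. The palindrome reads alike on both strands. No match says only that these letters are not in this window.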

How the data were processed

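Poly(A) RNA of mammary tissue was read as single-end reads. The submitters' processing notes name CASAVA, TopHat and mm9, and the study names Cufflinks. Versions are not given in the sources used here. The authors deposited FPKM values from Cuffdiff, 1 per genotype and locus, with their own fold change, test statistic, p-value, q-value, status and call in further columns, which were not used. All FPKM columns belonged to the 2 groups, which were taken from the labels.

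Log2 ratios were computed from the deposited FPKM values without a pseudocount. Genes were counted as past 2-fold at a ratio of 2 or more and over 5 FPKM in at least 1 genotype, and lists used genes over 1 FPKM. For a name with several loci, the one with the highest mean was kept, and loci merged with other genes were left out of lists. The 9 genes and all lists were chosen with earlier results of these data known. The genes named are the 9, listed partners of the same signals, and listed genes past 2-fold and over 5 FPKM. Some of the most abundant markers, and the loci next to *Tph1* in rank or position, are named too. The most abundant adipocyte and muscle markers are not named. Most T cell, B cell and muscle markers past 2-fold and over 5 FPKM are not named. They were 5 T cell and 3 B cell markers, lower in mutant glands, and 2 muscle markers, higher there. *Krt19* and *Ehf* mark a range, and *Tpsab1* and *Chga* were named after their values were seen. Starts count from 1. GENCODE (mm9) gave 3′ UTRs, RefSeq the microRNA and promoter windows. The script was tested on simulated data. Python 3.11.15, numpy 2.4.6, pandas 2.3.3 and matplotlib 3.10.9 were used. Alternatives were other pseudocounts, FPKM minimums, fold limits and scalings. The planned model over single mice was not run.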

Additional observations from a re-analysis of the deposited data

How the results depend on the processing

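No paired analysis was possible because both mice of a genotype share 1 value, and neither a replicate block nor leaving out a mouse could be run. Depth is unknown, so the precision of the low values, where 7 of the 9 genes lie, cannot be given. An alternative was taken to move a ratio when it changed it by over 1.5-fold and a count when it changed it by over 1.5 times. Of the alternatives over the 9 genes, 52 values kept within this limit and 11 moved, but most of these outcomes were fixed in advance. A scaling shifts every log2 ratio alike. The shift was 0.10 over named loci, 0.03 to a median ratio of 1 and −0.50 over the luminal markers, each under the limit. Summing all loci of a name changed nothing, since each name had a single locus. Only the pseudocounts could move some genes and not others. Scaling to equal sums over all loci moved all 9, by its own shift of −0.63, to 2.66 for *Tph1*, −0.72 for *Htr7*, −0.75 for *Maoa*, −1.34 for *Pthlh*, −0.32 for *Casr*, 0.45 for *Tnfsf11*, −0.30 for *Tnfrsf11a*, −0.54 for *Calca* and −0.82 for *Calcr*. A pseudocount of 1 moved *Tph1* to 2.64 and *Tnfsf11* to 0.30. The number of the 9 genes past 2-fold and higher was 2 without a minimum and 0 with over 5 FPKM in both genotypes, since *Tph1* was below it in control glands. The 121 higher and 144 lower named loci became 283 and 347 over 1 FPKM, 1305 and 1474 without a minimum, 58 and 58 over 5 FPKM in both genotypes, 374 and 421 at 1.5-fold and 36 and 67 at 3-fold. They became 19 and 893 with equal sums over all loci, and 30 and 551 with equal sums over the luminal markers, a scaling chosen after seeing the data. Within the limit, they were 177 and 118 with equal sums over named loci. With a median ratio of 1 over named loci above 5 FPKM they were 135 and 134. With equal sums over all loci the list medians were −0.57 for serotonin synthesis and removal, −0.78 for tetrahydrobiopterin, −0.74 for tryptophan, 0.34 for serotonin receptors (*Htr4* alone, 0.97 as deposited), −0.70 for the *Pthlh* and calcium sensing list, −0.63 for calcium pumps and channels, −0.66 for the RANK pathway, −0.57 for the calcitonin family, −0.62 for hormone-sensing cells and −1.20 for milk proteins. Under the same scaling the marker list medians were −0.09 for luminal epithelium, −0.03 for myoepithelium and −0.39 for mast cells. They were −0.60 for neuroendocrine and nerve markers, −2.78 for T cells, −3.71 for B cells and −1.01 for adipocytes. The medians of osteoclast and macrophage markers and of skeletal muscle were −0.46 and 0.22. Without a minimum the median over the serotonin receptors above 0 in at least 1 genotype was −0.0603.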
